A study of Homo sapiens with 9 samples.

Results

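Total mRNA and T-to-C conversion were compared between MCF10A cells that had lost JUN and received 4-thiouridine (4sU) and cells of the same model that received no 4sU. MCF10A is an immortalised, non-tumorigenic line of human breast epithelium. All cells derived from a JUN knockout in which JUN was put back as a fusion with an auxin-inducible degron (JUN-AID-V5) together with TIR1, the plant protein that targets the degron for degradation in the presence of an auxin, here indole-3-acetic acid (IAA). The JUN-depleted group was given IAA (100 µM) over 1 h, followed by a pulse of 4sU (100 µM, 1 h). The unlabelled group (no 4sU control) had 3 libraries, and the labels name no solvent for it. A further group of 3 libraries received DMSO and 100 µM 4sU and kept JUN, and its values are given beside those of part of the genes and lists. The 3 columns of the JUN-depleted group held the same values in all 56868 rows, so they were counted as 1 library. Differences from it are therefore descriptions without a test: an exact two-sided rank test of 1 library against 3 cannot go below p = 0.5. The unlabelled and the JUN-depleted groups differ both in 4sU and in JUN, and the effects of these cannot be told apart from these 2 groups alone.

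The members were the 8540 genes, of 25801 in the table, that had a mean of at least 5 CPM (reads scaled to library size) in the unlabelled libraries. Each gene was represented by its 3′ interval with the most reads. A gene was counted as lower or higher when the JUN-depleted library was beyond the lowest or highest unlabelled library and differed from the unlabelled mean by 1 log2 unit or more on the log2(CPM + 1) scale. This scale understates the change of genes with few reads. CPM are shares of a library, so that less RNA per cell and fewer cells cannot be told apart.

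In SLAM-Seq, 4sU is built into RNA that is transcribed during the pulse, and alkylation makes it read as C instead of T. A high conversion rate after a short pulse therefore marks mRNAs whose pool is quickly replaced. Immediate early transcription factors, cytokines and feedback inhibitors of signalling are known for such short-lived mRNAs, which often carry AU-rich elements with the pentamer ATTTA in their 3′ UTR. Proteins of the ZFP36 family bind these elements and recruit deadenylases. JUN forms AP-1 dimers with FOS proteins, and the study examined how JUN affects targets of the transcriptional co-activators YAP and TAZ.

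To show what such elements look like, 3′ UTR stretches of 5 genes that were lower in the JUN-depleted library are given beside that of TIPARP, which was not lower. They are written as DNA from GRCh37, 5′ to 3′ on the strand of the gene, with ATTTA in capitals. The windows of 30 bases lie at chr4:74963302-74963331 (CXCL2, minus strand), chr5:172195643-172195672 (DUSP1, minus strand), chr14:75748761-75748790 (FOS, plus strand), chr4:74608828-74608857 (CXCL8, plus strand), chr3:101578324-101578353 (NFKBIZ, plus strand) and chr3:156423304-156423333 (TIPARP, plus strand).
CXCL2: ttctATTTATTTATTTATTTATTTAtttgt
DUSP1: gctggtccttATTTATTTAacttcacccga
FOS: tgtgtttttaATTTATTTAttaagatggat
CXCL8: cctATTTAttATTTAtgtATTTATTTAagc
NFKBIZ: tgaaacaaacatATTTAgttcactattata
TIPARP: aggattctATTTATTTATTTAcgtttgata
The window of CXCL2 held 5 overlapping pentamers, and that of NFKBIZ held 1. Over all genes, a 3′ UTR segment of GENCODE within 20% of the length of the deposited interval was found for 110 of the 120 protein-coding lower genes and for 67 of the 71 protein-coding higher genes. At least 1 ATTTA was present in 95.5% of the lower, 32.8% of the higher and 74.9% of all 7552 matched genes. Its density was 3.07, 1.05 and 2.42 per 1000 bases. TATTTAT, which contains the pentamer, was present in 58.2% of the lower and 36.0% of all matched genes. Among the decile of genes with the highest conversion rate, those that were not lower held it in 40.9% of cases and the pentamer at a density of 2.24 per 1000 bases. The segments of higher genes had a median of 292 bases against 1282 bases for all matched genes, so shares of genes with a motif are not at equal length. The densities are per length but not at equal base composition. The median GC content was 38.2% for lower, 50.6% for higher and 40.8% for all matched genes, and ATTTA holds only A and T. These matches are descriptions of sequence and were not tested.

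The libraries held 18997637 to 24014195 reads, with 20057746 in the JUN-depleted library. Over the 8540 genes, the SD between the unlabelled libraries had a median of 0.22 log2 units, and in 8.27% of the genes these 3 libraries spanned at least 1 log2 unit. Unlabelled replicate 1 stood apart: its Pearson correlation across genes with replicates 2 and 3 was 0.938 and 0.933, whereas replicates 2 and 3 correlated at 0.990. The JUN-depleted library correlated at 0.945 to 0.953 with the unlabelled libraries and at 0.968 to 0.990 with the labelled libraries that kept JUN, with the highest value for replicate 1 of these. Genes share a library, so these values describe the libraries only. All 12 mammary epithelial markers passed the filter. Of 6 fibroblast markers only DCN did, at 4.49 CPM in the JUN-depleted library, and no endothelial or blood marker did. COL1A1, a fibroblast marker that missed the filter, was at 4.45, 5.14 and 3.21 CPM without 4sU and 9.82 CPM in the JUN-depleted library. In the labelled libraries that kept JUN it was at 6.01, 3.41 and 3.93 CPM.

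The JUN transcript itself (NM_002228, chr1:59242517-59249720, minus strand) was measured at 48.1, 57.6 and 44.95 CPM in the unlabelled libraries and at 62.9 CPM in the JUN-depleted library. It was at 30.2, 20.3 and 25.6 CPM in the labelled libraries that kept JUN. The JUN-depleted library had the highest unscaled CPM of the 7, but on the TMM-scaled log2 scale it lay within the unlabelled range, 0.20 above the unlabelled mean. Its conversion rate of 2.97% lay between the 2.03% and 3.08% of the labelled libraries that kept JUN. IAA removes the protein, so the mRNA is no check of depletion, and whether the fusion construct carries the measured 3′ interval is not given in the sources used here.

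Of the 8540 genes, 140 (1.64%) were lower and 75 (0.878%) were higher in the JUN-depleted library. Without the 1 log2 unit requirement, 2276 (26.7%) lay below all 3 unlabelled libraries, 2292 (26.8%) above all 3 and 3972 within their range. The 140 lower genes reached down to -3.18 log2 units with a median of -1.35. Their medians in the labelled libraries that kept JUN were -1.32, -1.29 and -1.29, relative to the same unlabelled libraries, which both comparisons share. In 63 of the 140 genes the JUN-depleted library was also below all 3 of these. Over all 8540 genes, 877 lay below all 6 other libraries. The 140 genes were selected by low values in the JUN-depleted library itself, which favours it being the lowest, so the 63 say nothing about JUN.

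Conversion rates were higher in 5468 genes (64.0%) and lower in 26 (0.304%), when rates were compared by the same rule on log2(rate + 0.05%). The median rate over the 8540 genes was 0.232% in the JUN-depleted library, 0.0570%, 0.0568% and 0.0593% in the unlabelled libraries, and 0.251%, 0.189% and 0.186% in the labelled libraries that kept JUN. The median of the differences between the JUN-depleted library and the unlabelled mean was 0.174 percentage points. The lower genes had a median rate of 2.39%, and 137 of 140 had a higher rate than in the unlabelled libraries, against the background of 64.0%. The exceptions were RESF1, NFXL1 and ZNF83, at 0.0656%, 0.0685% and 0.131%.

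Total mRNA was lowest where conversion was highest. Genes were divided into deciles of 854 by their rate in the JUN-depleted library. The median difference from the unlabelled mean was 0.04 log2 units in the lowest decile and 0.09 in the next, was 0.01 in the seventh, and was -0.09 in the ninth and -0.31 in the highest, where rates ranged from 0.789% to 11.4%. In the labelled libraries that kept JUN, the same highest decile had medians of -0.37, -0.36 and -0.34. The JUN-depleted library was the least reduced of the 4 labelled libraries there, but by a small margin. The deciles were formed from its own rates, which can favour this rank, so no conclusion is drawn from it. The highest decile held 116 of the 140 lower genes, which is 13.6% of its genes, and the remaining 738 were not lower. The gap between the highest and the lowest decile was -0.35 log2 units, and -0.30 without unlabelled replicate 1. With deciles from the rates of the labelled libraries that kept JUN, the gap in the JUN-depleted library was -0.43.

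**Figure D1:**
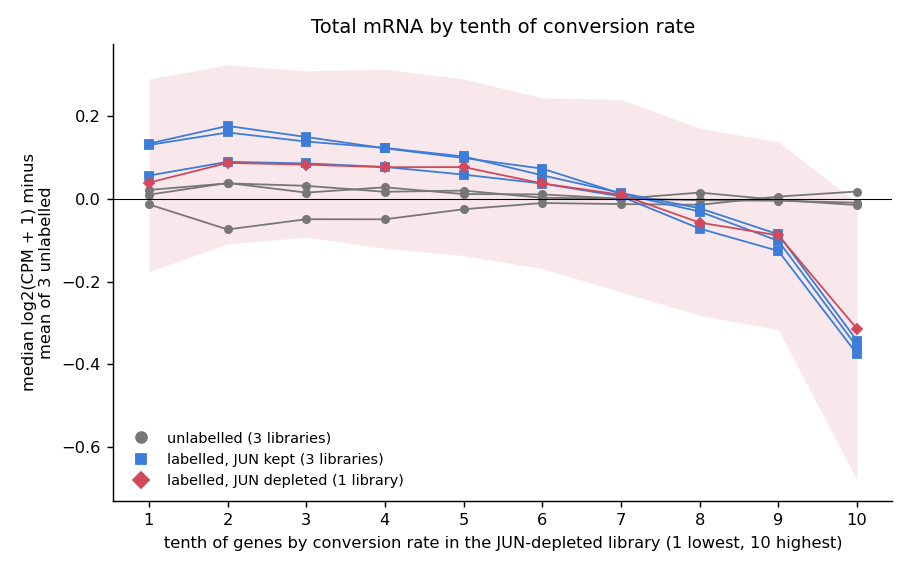
Median difference in total mRNA, on the log2(CPM + 1) scale against the mean of the 3 unlabelled libraries, for deciles of 854 genes ordered by conversion rate in the JUN-depleted library. Each line is 1 library and the band spans the quartiles of the JUN-depleted library, whose median goes from 0.04 in the lowest to -0.31 in the highest decile while the unlabelled lines stay near 0.

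**Figure D2:**
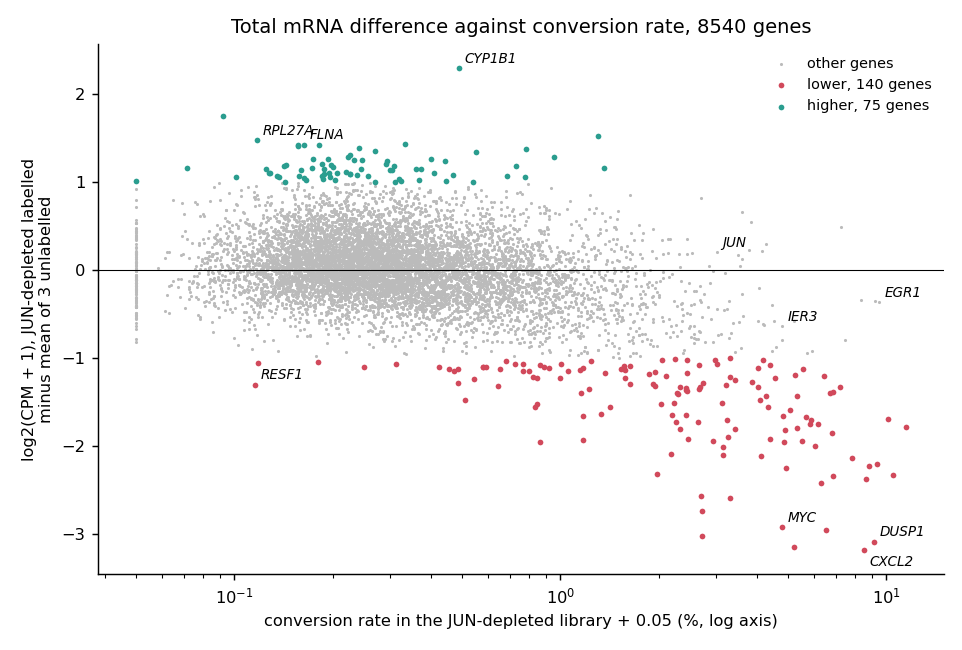
Each point is 1 of 8540 genes, with its conversion rate in the JUN-depleted library plus 0.05% on a log axis and its total mRNA difference from the unlabelled mean in log2 units. The 140 lower genes crowd at high rates and the 75 higher genes at low rates, with CYP1B1 highest at 2.30.

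On the log2(CPM + 1) scale, the lowest difference was that of CXCL2 (NM_002089, chr4:74962757-74964913, minus strand), a chemokine that attracts neutrophils. It was at 63.6, 81.9 and 61.6 CPM in the unlabelled libraries and at 7.28 CPM in the JUN-depleted library, whose 146 reads give an exact Poisson 95% interval of 6.15 to 8.56 CPM for counting error alone. The labelled libraries that kept JUN held 8.08, 7.54 and 8.46 CPM. All 4 labelled libraries thus lay far below the unlabelled ones, and CXCL2 was 10.4-fold lower in the JUN-depleted library than the unlabelled mean, -3.18 on the log2 scale. Its conversion rate was 0.0720%, 0.0791% and 0.0453% without 4sU and 8.46% in the JUN-depleted library, above the 7.29% to 7.68% of the labelled libraries that kept JUN. Of 15 cytokines and chemokines that passed the filter, 5 were lower (33.3% against 1.64% of all genes) and none was higher. Their median difference was -0.70 against 0.01 over all genes. CXCL8, which also recruits neutrophils, was at 103.5, 231.9 and 229.1 CPM without 4sU and at 49.7 CPM in the JUN-depleted library, and at 58.1, 130.6 and 144.5 CPM in the labelled libraries that kept JUN. The JUN-depleted library was the lowest of the 7 for CXCL8, whereas the labelled libraries that kept JUN overlapped with the unlabelled ones, since unlabelled replicate 1 lay below replicates 2 and 3 of that group. LIF, a cytokine of the IL-6 family, was at 13.8, 16.3 and 17.0 CPM and 4.14 CPM. IL6 and CXCL3 were the other members that were lower. IL24 lay on the other side, at 134.1, 66.8 and 64.7 CPM without 4sU and 141.5 CPM in the JUN-depleted library, 0.63 log2 units above the mean and below the threshold.

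Negative regulators of MAP kinase and NF-κB signalling followed. DUSP1 (NM_004417, chr5:172195099-172198198, minus strand) encodes a phosphatase that inactivates p38, JNK and ERK. It was at 231.3, 148.6 and 155.8 CPM without 4sU and at 21.5 CPM in the JUN-depleted library, 9.01-fold lower, and at 23.8, 16.3 and 24.4 CPM in the labelled libraries that kept JUN. Its conversion rate was 9.12%, below the 9.32%, 10.0% and 9.35% of those libraries. DUSP6, a phosphatase specific for ERK, was at 101.7, 147.7 and 122.8 CPM without 4sU and 32.5 CPM in the JUN-depleted library. These were the only lower genes among 18 MAP kinase phosphatases and ERK feedback regulators, 11.1% against 1.64% of all genes. Of the 18, 12 lay below all 3 unlabelled libraries, against 26.7% of all genes, and the list median was -0.43. ERRFI1, an inhibitor of the EGF receptor, did not pass the fold threshold with 18.4, 18.4 and 18.8 CPM without 4sU and 10.7 CPM in the JUN-depleted library.

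Among 14 NF-κB subunits and feedback inhibitors, 4 were lower (28.6% against 1.64% of all genes) and none was higher. The list median was -0.24, and -0.12 without TMM scaling. The lower genes were the inhibitors NFKBIZ, NFKBIA and TNFAIP3 and the ubiquitin ligase BIRC3. NFKBIA, the inhibitor that retains NF-κB in the cytoplasm, was at 303.6, 260.2 and 258.1 CPM without 4sU and at 58.2 CPM in the JUN-depleted library, next to 55.0, 28.6 and 31.4 CPM in the labelled libraries that kept JUN. TNFAIP3, which edits ubiquitin chains, was at 82.5, 99.6 and 107.0 CPM and 21.2 CPM. NFKBIZ (chr3:101546835-101579866, plus strand), a nuclear inhibitor-like co-regulator, was at 37.5, 34.1 and 34.4 CPM without 4sU, 7.52, 6.87 and 8.66 CPM with 4sU and JUN, and 4.04 CPM after JUN depletion. NFKBIZ was thus below all 6 other libraries, and its rate of 6.49% was above the 2.56% to 4.74% of the labelled libraries that kept JUN. The subunits themselves lay on the other side or near 0, with RELB, of the alternative pathway, at 0.78 log2 units and RELA at 0.44, both below the threshold. BCL3 had the highest difference of the list, 0.92 log2 units, also below the threshold. It was at 17.7, 14.6 and 11.9 CPM without 4sU and 31.0 CPM in the JUN-depleted library. The labelled libraries that kept JUN held 23.4, 9.33 and 14.6 CPM of BCL3, so the list did not move in 1 direction.

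**Figure D3:**
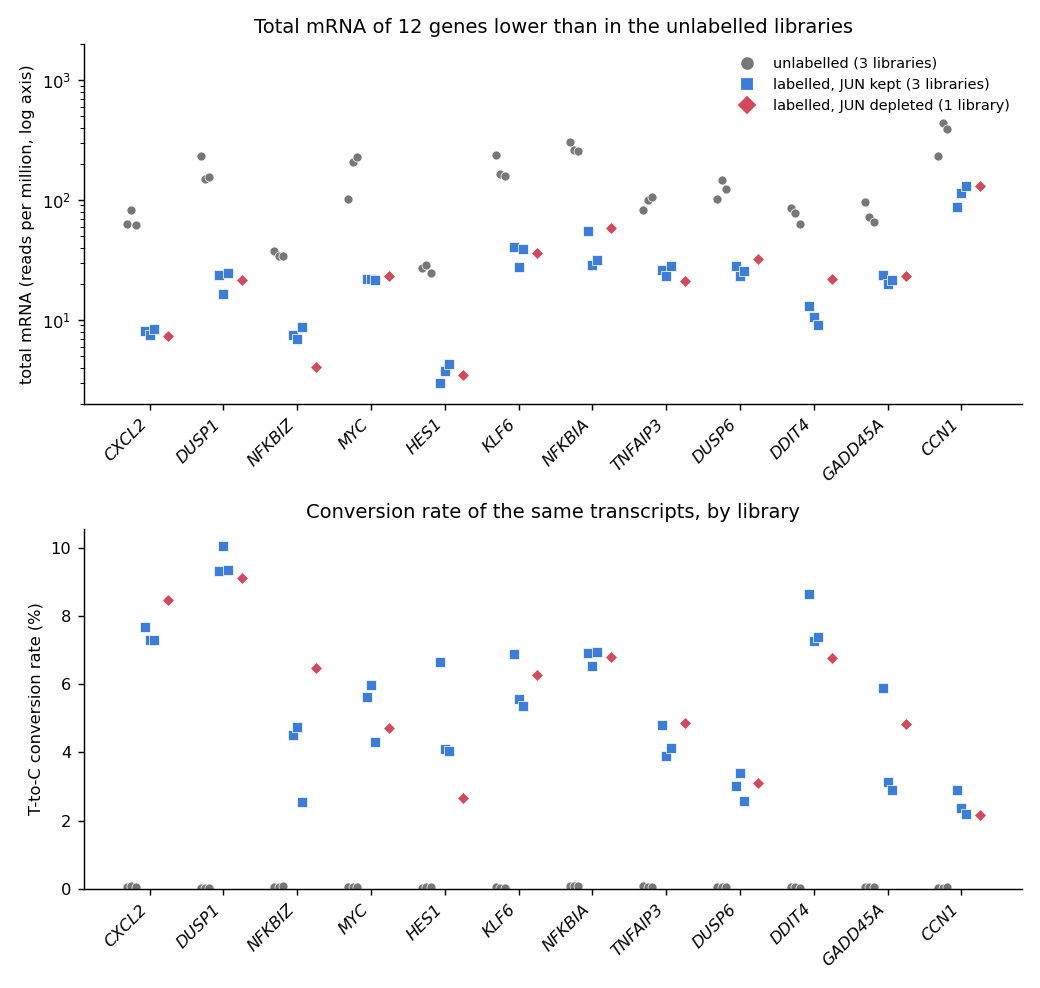
Total mRNA in CPM on a log axis (top) and conversion rate in percent (bottom) of 12 lower genes in the 3 unlabelled, the 3 labelled JUN-containing and the 1 JUN-depleted library, 1 point per library. The labelled points lie below the unlabelled ones for each gene at the top and above them at the bottom. For instance, the JUN-depleted point lies below the other labelled ones at the top for NFKBIZ and above them for DDIT4. At the bottom it lies above them for NFKBIZ and below them for DDIT4 and HES1.

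Immediate early transcription factors were split. Of 20 that passed the filter, 6 were lower (FOS, MYC, KLF6, IER2, IER5 and CSRNP1), against 1.64% of all genes. Only JUND was higher, against 0.878% of all genes. The list had a median of -0.62 and a median conversion rate of 2.50%. Its median in the labelled libraries that kept JUN was -0.75, -1.28 and -0.95. The JUN-depleted library was thus the least reduced labelled library for this list, a rank that was not tested. MYC, a regulator of growth, was at 101.3, 206.4 and 229.7 CPM without 4sU and at 23.4 CPM in the JUN-depleted library, close to the 21.8, 22.03 and 21.7 CPM of the labelled libraries that kept JUN. KLF6, a zinc finger factor, was at 239.4, 163.4 and 157.8 CPM and at 36.4 CPM. FOS, the partner of JUN in AP-1, was at 9.54, 9.29 and 9.32 CPM without 4sU and 2.44 CPM in the JUN-depleted library, with a rate of 10.0%. For these 3 genes the unlabelled libraries lay entirely above the labelled ones. EGR1, a zinc finger factor induced by ERK signalling, had the highest rate of all genes with at least 20 CPM in the JUN-depleted library, 9.44%, and yet was at 45.1 CPM there against 66.3, 47.4 and 48.1 CPM without 4sU. In the labelled libraries that kept JUN it was at 36.1, 19.8 and 21.1 CPM. Of the AP-1 members, FOSL1 was at 35.4, 16.4 and 18.0 CPM without 4sU and 13.8 CPM in the JUN-depleted library and did not pass the threshold. JUND, a JUN family member whose mRNA had a rate of 0.728%, was at 21.8, 17.4 and 15.4 CPM without 4sU and 42.3 CPM in the JUN-depleted library. It was at 38.9, 18.2 and 24.5 CPM in the labelled libraries that kept JUN, so replicate 1 of these nearly reached the same level.

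IER3, which limits apoptosis, is a second gene with a high rate (4.73%) and a moderate difference, with 513.9, 750.3 and 499.5 CPM without 4sU and 404.2 CPM in the JUN-depleted library. Its reads are uncertain because the table lists copies of it on alternative assemblies.

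The NOTCH target HES1, a transcriptional repressor with a classic oscillating mRNA, was at 26.9, 28.8 and 24.8 CPM without 4sU and at 3.49 CPM in the JUN-depleted library, 8.40-fold lower, with a rate of 2.66%. It was the only lower gene among 7 of the NOTCH pathway, a list too short to be set against the 1.64% of all genes. Of 13 genes of TGF-β and BMP feedback, 3 were lower (SMAD7, ID1 and INHBA), 23.1% against 1.64% of all genes. ID1, an inhibitor of differentiation factors, was at 184.3, 170.2 and 171.9 CPM and 70.4 CPM. This list had a median of -0.31, which was -0.48 without unlabelled replicate 1 and -0.21 without TMM scaling. Of 22 p53 targets, 4 were lower (PLK2, GADD45A, PLK3 and PMAIP1) and BAX was higher. The 4 lower genes are 18.2% of the p53 list, against 1.64% of all genes. GADD45A, which responds to DNA damage, was at 96.1, 71.7 and 66.2 CPM without 4sU and 23.1 CPM in the JUN-depleted library, whereas the list median was -0.14, which was -0.22 without unlabelled replicate 1, -0.02 without TMM scaling and -0.09 with the length trend removed. DDIT4, an inhibitor of mTORC1 that is induced by stress, was at 85.1, 78.2 and 63.3 CPM and at 21.9 CPM, above the 13.2, 10.5 and 9.11 CPM of the labelled libraries that kept JUN.

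Of 120 zinc finger genes with ZNF symbols, 16 were lower and 1 was higher, with a median of -0.38 and a median rate of 0.76%. These were 13.3% and 0.833% of the list, against 1.64% and 0.878% of all genes, so only the lower share was above that of all genes. ZNF92, for instance, was at 5.14, 7.10 and 8.001 CPM without 4sU and 1.55 CPM in the JUN-depleted library. The exception was ZNF428, at 22.2, 13.6 and 12.6 CPM and 44.9 CPM. Of the 140 lower genes, 20 were not protein coding and 120 were. Of all 8540 genes, 8349 were protein coding. SND1-IT1, a noncoding RNA within SND1, was at 10.97, 10.6 and 12.5 CPM without 4sU and at 0.449 CPM in the JUN-depleted library, where it had 9 reads. It was 27.7-fold lower, a larger ratio than that of CXCL2, and its labelled libraries with JUN held 0.893, 0.125 and 0.498 CPM. Among 25 snoRNA host and nuclear noncoding RNAs, 5 were lower, 20.0% against 1.64% of all genes. MIR17HG, the host of the miR-17-92 cluster, was at 7.42, 5.90 and 5.37 CPM and 1.197 CPM, with a rate of 11.4%, and SNHG12 was at 39.3, 30.6 and 23.8 CPM and 7.88 CPM. Whether counting used strand is not given in the sources used here, so reads of overlapping genes may be shared.

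The same rule applied to YAP and TAZ targets gave 4 lower and no higher genes among 24 canonical targets. The share of lower genes was 16.7%, against 1.64% of all genes. CCN1, a secreted matricellular protein, was at 233.4, 435.3 and 388.7 CPM without 4sU and at 129.7 CPM in the JUN-depleted library, 2.997-fold lower, and at 87.9, 114.8 and 129.9 CPM in the labelled libraries that kept JUN. The others were GADD45A, GADD45B and NUAK2. CCN2, the paralog of CCN1, was at 25.6, 34.0 and 40.0 CPM without 4sU and 34.6 CPM in the JUN-depleted library, within the unlabelled range. AMOTL2, a scaffold that binds YAP, was at 34.9, 55.2 and 67.1 CPM and 36.2 CPM, also within it. THBS1, a matrix glycoprotein, was at 116.8, 111.0 and 128.8 CPM without 4sU and 151.2 CPM in the JUN-depleted library, above all 6 other libraries, and its rate of 0.826% lay above the 0.491% to 0.563% of the labelled libraries that kept JUN. The list median was -0.26, but -0.47 without unlabelled replicate 1 and -0.14 without TMM scaling. In the labelled libraries that kept JUN it was -0.35, -0.06 and -0.06. Of 162 YAP/TAZ targets listed by the study, 6 were lower (CXCL8, DKK1, RND3, CCN1, BCAR3 and INHBA) and none was higher, with a median of -0.20, which was -0.35 without unlabelled replicate 1 and -0.08 without TMM scaling. These 6 are 3.70% of the list, against 1.64% of all genes. The list median in the labelled libraries that kept JUN was -0.28, 0.17 and 0.05. The medians of unlabelled replicates 1 to 3 from their own mean were -0.24, 0.15 and 0.12 for these genes, which is as wide as the difference. The clusters 1, 2 and 3 of YAP-responsive genes listed by the study had 2, 10 and 2 lower genes among 82, 113 and 78, which is 2.44%, 8.85% and 2.56% against 1.64% of all genes, with medians of 0.08, -0.10 and -0.18. The median of cluster 1 was 0.20 without TMM scaling and -0.01 with the length trend removed. That of cluster 2 was 0.02 without TMM scaling, -0.20 without unlabelled replicate 1 and -0.07 without replicate 3. That of cluster 3 was -0.05 without TMM scaling and -0.06 without unlabelled replicate 3. These lists were chosen by the study and are not independent evidence of a direction.

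**Figure D4:**
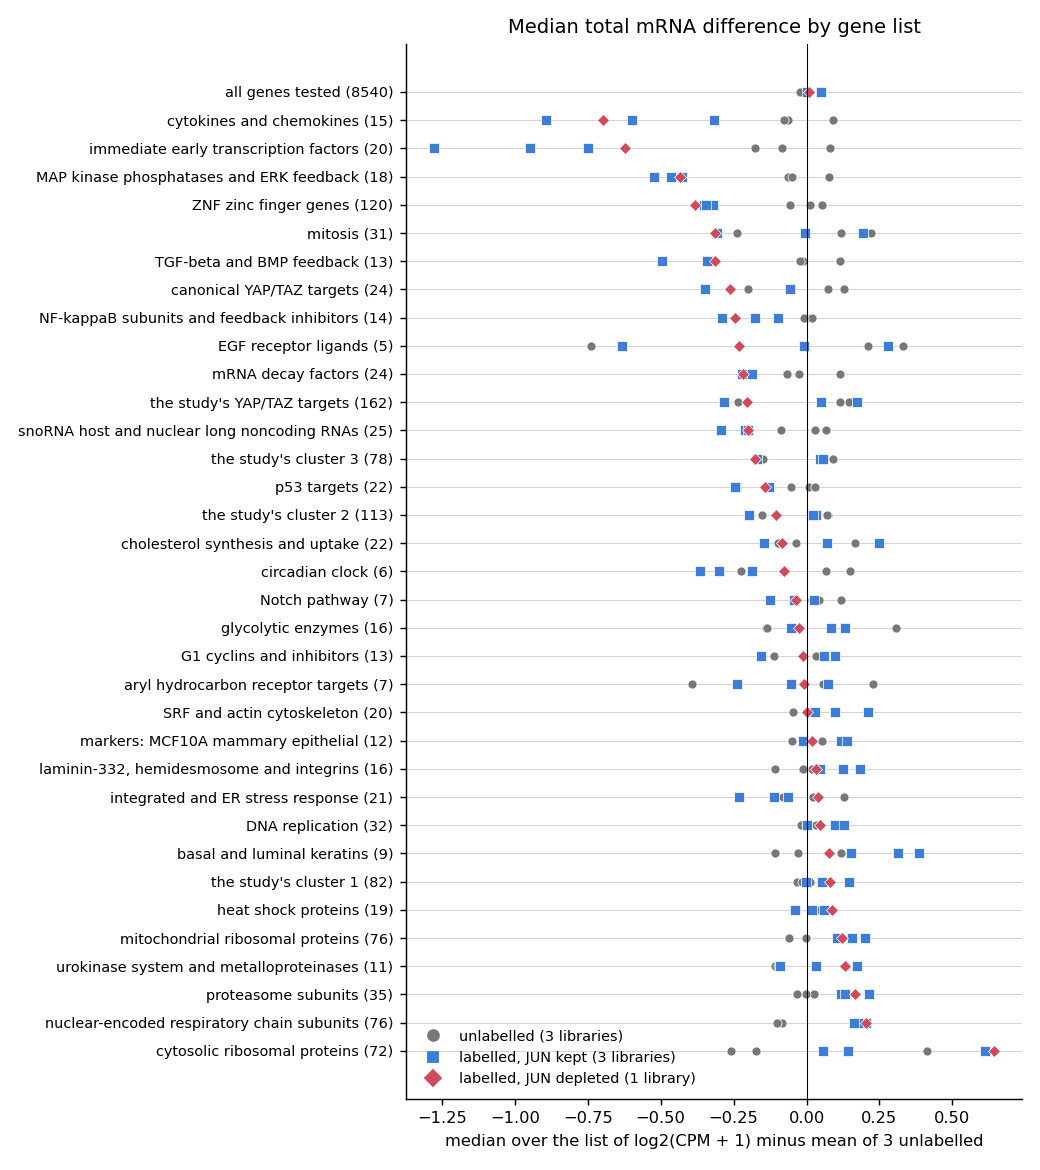
Median over each gene list of the difference in log2(CPM + 1) from the mean of the 3 unlabelled libraries, with 1 point per library and the number of genes that passed the filter in parentheses. Cytokines, at -0.70, and immediate early factors, at -0.62, lie lowest in the JUN-depleted library, and cytosolic ribosomal proteins lie highest in the JUN-depleted library, at 0.64.

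The 75 higher genes had a median difference of 1.15 log2 units and a median conversion rate of 0.176%. The labelled libraries that kept JUN were at 1.09, 0.14 and 0.42 for the same genes, so replicate 1 of these came close to the JUN-depleted library and the others did not. Their 3′ intervals were short, with a median of 267 bases against 1265.5 for all genes and 1491 for the lower genes, and 48 of the 75 were in the shortest quintile of intervals. Over all genes, the median difference went from 0.18 log2 units in the shortest quintile to -0.09 in the longest, and unlabelled replicate 1 went from 0.11 to -0.10 relative to the unlabelled mean. When each library's trend with interval length was removed, 36 genes were higher and 144 lower. Without unlabelled replicate 1, 146 were higher and 179 lower. The part of interval length and of that library in the higher set was not tested further. Without TMM scaling the median of all genes was shifted to 0.13, and 138 genes were higher and 113 lower.

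Of 72 cytosolic ribosomal proteins, 13 were higher, against 0.878% of all genes, and none was lower. RPL27A, a protein of the large subunit, was at 353.2, 1026.9 and 845.1 CPM without 4sU and at 2052.3 CPM in the JUN-depleted library, and at 1980.0, 1248.1 and 1215.0 CPM in the labelled libraries that kept JUN. RPL39 was at 175.2, 162.1 and 147.0 CPM and 419.8 CPM. The list median was 0.64 in the JUN-depleted library and 0.61, 0.06 and 0.14 in the labelled libraries that kept JUN, and that of unlabelled replicates 1 to 3 was 0.41, -0.17 and -0.26. With the interval length trend removed it was 0.32. FLNA, an actin crosslinker, was at 353.4, 325.6 and 314.3 CPM without 4sU and at 973.2 CPM in the JUN-depleted library, with 968.1, 355.0 and 439.5 CPM in the labelled libraries that kept JUN. COX6A1, a subunit of cytochrome c oxidase, was at 152.3, 141.5 and 130.4 CPM and 358.9 CPM. It was the only higher gene of 76 nuclear-encoded respiratory chain subunits, 1.32% of them and near the 0.878% of all genes. These subunits had a median of 0.20, of 0.33 without TMM scaling and of 0.01 with the length trend removed. Neither lower nor higher members were found among 9 keratins, 16 genes of laminin-332 and integrins, 16 glycolytic enzymes and 19 heat shock proteins. The same held for 13 G1 cyclins and inhibitors, 22 cholesterol synthesis genes and 32 DNA replication genes. With 1.64% of all genes lower and 0.878% higher, lists of this size are too short to show an absence of change. The 31 genes of mitosis had no lower or higher member either. Of these, 17 lay below all 3 unlabelled libraries, against 26.7% of all genes, and their median was -0.31. This median was -0.19 both without unlabelled replicate 2 and without TMM scaling. Unlabelled replicate 1 was at -0.24 for that list.

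CYP1B1 (NM_000104, chr2:38294116-38337044, minus strand), a cytochrome P450 that is a target of the aryl hydrocarbon receptor (AHR), had the largest positive difference. It was at 101.5, 238.6 and 159.3 CPM without 4sU, at 158.6, 192.7 and 136.1 CPM with 4sU and JUN, and at 847.7 CPM in the JUN-depleted library, a difference of 2.30 log2 units and 4.62-fold. It was 1 gene of 8540 that lay at least 1 log2 unit above all 6 other libraries, and no gene lay that far below all 6. Its conversion rate was 0.439%, below the 0.450% to 0.519% of the labelled libraries that kept JUN. AHR is a receptor that indoles and dioxins can activate and that binds a core of GCGTG in DNA.

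CYP1A1 (NM_000499, chr15:75011883-75017877, minus strand), the best known AHR target, did not pass the filter, with 0.198, 0.983 and 0.421 CPM without 4sU and 1.13, 0.833 and 0.249 CPM with 4sU and JUN. In the JUN-depleted library it was at 38.3 CPM from 769 reads (exact Poisson 95% interval 35.7 to 41.1), 64.9-fold above the unlabelled mean, and its conversion rate was 3.27%. TIPARP, which represses AHR in turn, was at 32.9, 58.8 and 57.1 CPM without 4sU and at 17.1, 22.4 and 22.8 CPM with 4sU and JUN. At 52.1 CPM the JUN-depleted library lay within the unlabelled range and above the labelled libraries that kept JUN, while its rate of 1.33% was within their 1.28% to 1.86%. SLC7A5, an amino acid transporter, was at 124.1, 197.5 and 148.7 CPM without 4sU and 371.9 CPM in the JUN-depleted library, against 279.0, 171.1 and 195.4 CPM. AHR itself was at 18.0, 15.95 and 12.1 CPM and 12.7 CPM, within the range of unscaled CPM and 0.11 log2 units below the lowest unlabelled library after TMM scaling. Of 7 genes of the AHR list that passed the filter, 2 were higher (CYP1B1 and SLC7A5), 28.6% against 0.878% of all genes, and none was lower. The list is short and was chosen with earlier results of these data known, so its share is a description only. The median of the 7 was -0.01 and had no stable sign, with -0.18, 0.14 and 0.19 when unlabelled replicate 1, 2 or 3 was left out and 0.12 without TMM scaling. IAA is itself an indole, and JUN loss and exposure to IAA cannot be told apart in this library.

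**Figure D5:**
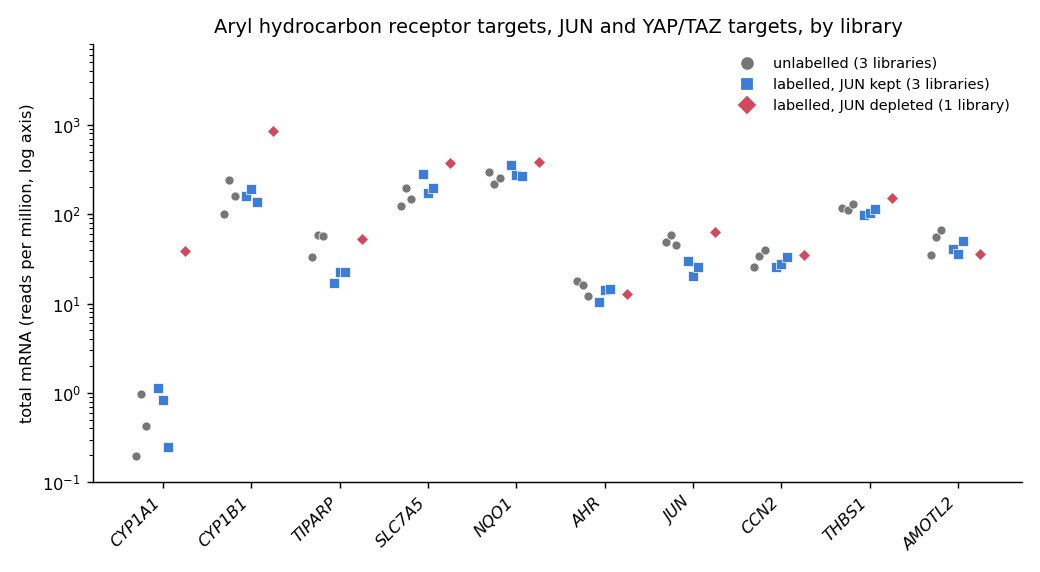
Total mRNA in CPM on a log axis for 6 genes of the aryl hydrocarbon receptor list, JUN and 3 YAP/TAZ targets, with 1 point per library. For CYP1A1 and CYP1B1 the JUN-depleted library lies well above the 6 others, at 38.3 and 847.7 CPM.

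The promoters of CYP1A1 and TIPARP are shown because their transcripts were highest, or highest among labelled libraries, after IAA. Each runs from 250 bases before to 50 bases after the start of transcription in RefSeq (GRCh38.p14), 5′ to 3′ on the gene strand. Capitals mark GCGTG or its reverse complement CACGC. That of CYP1A1 lies at chr15:74725479-74725778 on the minus strand and that of the first TIPARP start at chr3:156674340-156674639 on the plus strand.
CYP1A1: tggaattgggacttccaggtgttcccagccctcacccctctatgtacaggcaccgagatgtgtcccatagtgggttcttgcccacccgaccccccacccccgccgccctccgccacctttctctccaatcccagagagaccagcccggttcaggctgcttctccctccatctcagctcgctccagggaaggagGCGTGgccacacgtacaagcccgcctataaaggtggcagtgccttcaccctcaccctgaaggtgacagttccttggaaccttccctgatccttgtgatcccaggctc
TIPARP: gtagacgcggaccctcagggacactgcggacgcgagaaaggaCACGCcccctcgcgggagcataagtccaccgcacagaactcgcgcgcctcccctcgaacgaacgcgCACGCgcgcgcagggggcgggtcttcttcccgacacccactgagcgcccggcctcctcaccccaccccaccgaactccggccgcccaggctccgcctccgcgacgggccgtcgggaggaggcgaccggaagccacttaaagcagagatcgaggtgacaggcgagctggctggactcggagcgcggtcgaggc
CYP1A1 held the letters 1 time and the first TIPARP start 2 times, and CYP1B1 had no entry. The promoters of SLC7A5 and JUN, whose unscaled CPM were also highest in the JUN-depleted library, held the letters 1 time each and are not shown. The further TIPARP promoters, at chr3:156674676-156674975 and chr3:156676414-156676713, held them 0 times and are not shown. At least 1 match was present in 36.5% of all 35116 promoters searched and in 49.9% of those of the genes that passed the filter, with 53.5% for lower and 46.6% for higher genes. The AP-1 motif TGACTCA or its reverse complement TGAGTCA was present in 6.92% of 159 promoters of lower genes, in 4.11% of 73 promoters of higher genes and in 3.51% of those of all genes that passed the filter, counted over promoters and on both strands. A gene may have several promoters, and a match is no evidence of binding.

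Only 3 genes lay at least 0.5 log2 units above all 6 other libraries, and 9 lay as far below them. Beside CYP1B1 these were TSC22D3, a glucocorticoid-induced gene, with 9.15, 14.1 and 12.9 CPM without 4sU and 23.1 CPM in the JUN-depleted library, and ERF, an ETS family repressor, with 13.3, 6.17 and 5.37 CPM and 20.0 CPM. Among those below, CD274, which encodes PD-L1, was at 7.56, 7.95 and 8.21 CPM without 4sU, 2.82, 2.75 and 4.48 CPM with 4sU and JUN, and 1.45 CPM in the JUN-depleted library. RGS2, a regulator of G protein signalling, was at 23.6, 35.6 and 31.8 CPM, 8.27, 12.1 and 9.91 CPM, and 5.68 CPM. TSC22D3, ERF, CD274 and RGS2 were chosen after their values were seen.

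The highest conversion rates among genes with at least 20 CPM in the JUN-depleted library, after EGR1 and DUSP1, were those of NFKBIA (6.80%), DDIT4 (6.78%), KLF6 (6.26%) and ID1 (5.26%). A high rate did not always go with a difference past the threshold. EGR1 and IER3 lay below all 3 unlabelled libraries, but only by -0.36 and -0.64 log2 units from their mean. The lowest rates were those of RNASET2, NDUFS8, SAAL1 and MIR6797, which were listed at 0 in that library, on intervals of 75, 57, 59 and 72 bases, and of DPY19L1, at 0.00822%. The table does not give the number of T positions read, so the precision of a single rate is unknown. EIF3G had 2.39%, 4.82% and 4.56% already in the unlabelled libraries against 3.79% in the JUN-depleted one. Its high rate is thus present without 4sU, and EIF3G was singled out after its values were seen.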

How the data were processed

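From 3′-end libraries of alkylated RNA, processed with a Nextflow workflow for SLAM-Seq, the authors deposited 1 table. Per RefSeq transcript interval at the 3′ end, the deposited values are the T-to-C conversion rate, a fraction of T positions that the authors computed from the aligned reads, and reads scaled to library size. The submitters' processing notes name hg19. The deposited scaled values, a signal labelled CPM, were whole multiples of 1 read in 100% of non-zero cases (tolerance 0.01 of a read), which gave the reads per interval. The table holds no columns of comparisons made by the authors, and 0 per-sample columns were left unused.

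RefSeq identifiers were matched to genes with RefSeq names (97.7% of rows), and the interval with most reads was used, because overlapping intervals repeat reads. In 20.2% of genes there was more than 1 distinct interval. Differences used log2(CPM + 1) with TMM library sizes, and rates used log2(rate + 0.0005). Fits over 7 libraries with limma (3.58.1), DESeq2 (1.42.0) and edgeR (4.0.16, quasi-likelihood) were alternatives at an adjusted p of 0.05, in which the lone library is assumed to vary like the replicated groups. The steps were tested on simulated data. Folds are ratios of TMM-scaled CPM. Gene positions are those of GENCODE v44 on GRCh37, and promoters those of RefSeq on GRCh38.p14.

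The members and gene lists were chosen with earlier results of these data known. Named genes were the 12 lowest and 12 highest past the fold rule, the 10 highest and 5 lowest rates among genes with at least 20 CPM in the JUN-depleted library, a set of AP-1, YAP/TAZ and AHR genes, and up to 3 members of each list with the largest absolute difference and, where members lay on both sides, the most extreme of the other side. Further list members are named with their list.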

Additional observations from a re-analysis of the deposited data

How the results depend on the processing

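The count of lower genes, 140, was between 134 and 179 when 1 unlabelled library was left out, and the count of higher genes, 75, between 85 and 146, with both highest values without replicate 1. Of the 179 and 146 genes, 131 and 58 were shared with the 140 and 75. Without TMM scaling 138 genes were higher and 113 lower (45.02% of called genes lower against 65.1%), and with the length trend removed 36 were higher and 144 lower (80.0%). A pseudocount of 5 CPM gave 63 lower and 47 higher, and a minimum of 20 CPM gave 55 and 46 among fewer genes. A 1.5-fold threshold gave 478 and 524, and any distance outside the range 2276 and 2292. With the lone library assumed to vary like the replicated groups, limma called 32 lower and 0 higher (397 and 356 at an unadjusted p under 0.05), edgeR 23 and 0 (392 and 372) and DESeq2 112 and 4. Below all 6 other libraries lay 877 genes and above them 888, a choice made after seeing the data. The counts of lower genes under the other settings stayed within 1.5 times of 140.

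Genes with a lower conversion rate, 26, numbered 42 to 47 with 1 unlabelled library left out, 72 with a pseudocount of 0.0001, 0 with 0.002 (2850 higher), 1 with a minimum of 20 CPM (2746 higher) and 58 with a minimum of 1 CPM. The median rate difference, 0.174 percentage points, was 0.171 with the mean of a gene's intervals, 0.148 with a minimum of 20 CPM and 0.182 with a minimum of 1 CPM. The gap in total mRNA between the highest and lowest rate deciles was -0.37 to -0.30 with 1 unlabelled library left out and -0.43 with deciles from the labelled libraries that kept JUN. Of the list medians of total mRNA, 60 values moved by more than the replicate spread and 255 did not, and of the values of named genes 88 and 1199. No called result changed direction.

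No paired analysis was possible because the JUN-depleted columns hold 1 library whose replicate number is unknown. Counts of called genes rest on this 1 library, whose own spread between cultures was not measured, and the depth of about 20057746 reads leaves genes such as SND1-IT1 with 9 reads.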
